A study of Mus musculus with 8 samples.

Results

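The T cell receptor complex and the proteins that act directly on it were followed through the 10 genes Trac, Trbc2, Cd3g, Cd3d, Cd3e, Cd247, Cd4, Cd8a, Lck and Zap70. They were chosen by symbol, and all 10 had values among the 18835 genes with values. RNA was sequenced from heart tissue in 8 libraries of male BALB/cAJcl mice, 10 weeks old, all immunized with cardiac myosin, which sets off an autoimmune inflammation of the heart muscle. The 4 libraries of the VEGF-C group came from mice given the VEGFR-3 ligand VEGF-C C156S, a variant of a growth factor of lymphatic vessels, by intraperitoneal injection at 1 µg per day between day 7 and day 10. The 4 libraries of the PBS group came from mice injected with PBS over those days, and the labels give week 3 for all. No group without myocarditis was analysed here, so the comparison is between VEGF-C and PBS within immunized mice. The series title names cardiac lymphatic endothelial cells, whereas the labels of all samples name heart. Replicate numbers are those of the columns of the deposited table, which tie to no animal.

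A T cell recognises a peptide held by a major histocompatibility molecule through the alpha and beta chains of its receptor. These chains have almost no cytoplasmic part, so the signal is carried inward by the CD3 gamma, delta and epsilon chains and the zeta chain. The coreceptors CD4 and CD8 bring the kinase LCK to the complex, LCK phosphorylates the tyrosine motifs of the CD3 and zeta chains, and the kinase ZAP-70 docks on the phosphorylated motifs and passes the signal on. In experimental autoimmune myocarditis, CD4-positive T cells specific for cardiac myosin drive the disease.

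The libraries held 53.7 to 65.2 M reads in the VEGF-C group and 61.7 to 76.8 M in the PBS group. All 10 genes were read in every library, with 24 to 1184 reads per gene and library, so T cell RNA was present in all hearts. Cd8a had the fewest reads. Values below are normalized counts, that is reads divided by the authors' factor for each library, and log2 differences are VEGF-C minus PBS on the authors' scale, log2(normalized count + 4). In whole tissue, fewer T cells and less RNA per T cell cannot be told apart. The 10 genes together summed to 3591 to 4905 normalized counts in VEGF-C and 3626 to 5328 in PBS. PBS replicate 1 held the most RNA of the leukocyte gene Ptprc, at 5926 normalized counts (PBS replicates 2 to 4 had 3294 to 4377), and VEGF-C replicate 3 held the most RNA of immature thymocyte genes, described with Cd8a. Some of the results are also given without these libraries.

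Of the 10 genes, only Cd247 passed an adjusted p of 0.05 (limma, Benjamini-Hochberg over all genes), as lower in VEGF-C. Over all genes, 15.7% passed in either direction, 8.61% as lower and 7.05% as higher. The share of the receptor genes, 1 of 10, is thus near the background. The authors' deposited table also calls 1 of the 10, Cd247, where it calls 21.6% of all genes. With limma-voom 0 of the 10 passed (14.8% of all genes), and with library totals as the scaling 3 of the 10 passed as lower, Cd247, Cd4 and Zap70 (20.3% of all genes). The 2 groups did not overlap in 1 of the 10 genes, against 23.0% of all genes. Their median log2 difference was -0.11, against 0.0013 over all genes, with 4 positive and 6 negative; with library totals Cd3d, Cd8a and Trac turned negative as well. The differences ran from -0.54 in Cd247 to 0.40 in Cd3e, both chains of the same complex.

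To set these signal-carrying chains beside each other, the start regions of the CD3 and zeta genes are shown. Each window holds the 250 bases before and the first 50 bases after an annotated start, from RefSeq on GRCm38.p6, 5′ to 3′ along the gene; the deposited counts were made on GRCm39. Windows were matched by symbol for 7 of the 10 genes, not for Cd4, Trac and Trbc2, and the 4 windows printed are those of the CD3 chains and Cd247. Capitals mark matches, on either strand, to TATAAA, the GC box GGGCGG, the ETS core GGAAG, the RUNX core TGTGG and the E-box CAGGTG. No matches overlapped each other in these 4 windows.
Cd3e (chr9:45009562-45009861, minus strand): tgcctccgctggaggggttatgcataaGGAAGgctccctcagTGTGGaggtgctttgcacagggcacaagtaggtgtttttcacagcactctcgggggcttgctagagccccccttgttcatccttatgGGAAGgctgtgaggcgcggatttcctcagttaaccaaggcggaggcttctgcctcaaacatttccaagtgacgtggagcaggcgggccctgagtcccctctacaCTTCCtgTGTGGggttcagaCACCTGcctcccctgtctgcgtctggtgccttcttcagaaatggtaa
Cd247 (chr1:165788431-165788730, plus strand): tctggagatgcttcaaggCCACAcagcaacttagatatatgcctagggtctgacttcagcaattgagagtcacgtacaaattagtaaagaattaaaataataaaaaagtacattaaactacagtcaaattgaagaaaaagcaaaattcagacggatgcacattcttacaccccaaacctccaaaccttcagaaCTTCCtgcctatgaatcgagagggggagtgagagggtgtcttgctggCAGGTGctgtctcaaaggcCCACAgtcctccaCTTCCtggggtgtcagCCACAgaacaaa
Cd3g (chr9:44980382-44980681, minus strand): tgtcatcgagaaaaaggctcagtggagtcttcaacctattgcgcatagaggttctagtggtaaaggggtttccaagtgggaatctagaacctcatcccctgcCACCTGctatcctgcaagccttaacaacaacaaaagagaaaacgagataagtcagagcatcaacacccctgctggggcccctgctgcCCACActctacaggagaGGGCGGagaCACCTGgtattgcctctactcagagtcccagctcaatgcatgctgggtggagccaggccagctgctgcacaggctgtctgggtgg
Cd3d (chr9:44981536-44981835, plus strand): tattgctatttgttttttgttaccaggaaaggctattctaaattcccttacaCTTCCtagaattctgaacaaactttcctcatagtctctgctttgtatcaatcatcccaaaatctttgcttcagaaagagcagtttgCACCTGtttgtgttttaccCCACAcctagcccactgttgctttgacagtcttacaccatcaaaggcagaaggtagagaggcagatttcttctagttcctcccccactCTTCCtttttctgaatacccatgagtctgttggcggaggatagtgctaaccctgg

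Each of the 4 windows held the E-box CAGGTG, which 20.2% of 32851 start windows hold. The ETS core, held by 71.4% of start windows, had 3 matches in Cd3e and 2 each in Cd247 and Cd3d, and the RUNX core, held by 55.9%, had at least 1 match in each. None held TATAAA, which 13.6% hold, and the window of Cd3g held the GC box, which 35.7% hold. Cd3g and Cd3d lie head to head on chromosome 9 with 854 bases between their windows. These matches describe the letters and were not tested against the values.

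The constant regions of the antigen-binding chains had no difference past the threshold. Trac, the constant region of the alpha chain, had 582, 388, 476 and 409 normalized counts in VEGF-C replicates 1 to 4, against 444, 535, 497 and 373 in PBS replicates 1 to 4. The groups overlapped over nearly their whole range, and the log2 difference was 0.00027 ± 0.16 (SE), with a 95% interval from -0.35 to 0.35; with library totals it was -0.19. Trbc2, a constant region of the beta chain, averaged 540 ± 93.9 normalized counts in VEGF-C and 595 ± 126 in PBS (SD, n = 4 each). Its log2 difference was -0.13 ± 0.17, and it ran from -0.27 without PBS replicate 4 to -0.02 without PBS replicate 3. The second beta chain constant region, Trbc1, is nearly identical to Trbc2, so the split of reads between them is uncertain. Trbc1 had 414, 274, 272 and 269 normalized counts in VEGF-C, against 628, 363, 599 and 389 in PBS. VEGF-C replicate 1 lay within the PBS range and the other 3 lay below it, and the log2 difference of -0.66 ± 0.21 had a limma adjusted p of 0.0611. In the authors' deposited table Trbc1 has a log2 fold change of -0.69 with an adjusted p of 0.0141.

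The CD3 chains Cd3g and Cd3d had similar values in both groups. Cd3g averaged 634 ± 38.3 normalized counts in VEGF-C and 680.5 ± 113 in PBS (SD, n = 4 each), a log2 difference of -0.09 ± 0.12 with a 95% interval from -0.36 to 0.19. Cd3d averaged 389 ± 37.0 in VEGF-C and 374 ± 94.96 in PBS, a log2 difference of 0.08 ± 0.17 that was -0.11 with library totals. In both genes the 4 VEGF-C libraries lay inside the range of the PBS libraries.

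Cd3e, which encodes the chain that pairs with both CD3 gamma and CD3 delta, had the most positive difference of the 10. It had 455, 320, 366 and 302 normalized counts in VEGF-C replicates 1 to 4, against 303, 258, 360 and 185 in PBS replicates 1 to 4. The groups overlapped, with VEGF-C replicates 2 and 4 below PBS replicate 3. The log2 difference of 0.40 ± 0.21 did not pass (limma adjusted p = 0.211), and its 95% interval ran from -0.06 to 0.86. The difference stayed positive without any 1 library, between 0.22 and 0.54.

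Cd247, which encodes the zeta chain with most of the tyrosine motifs of the complex, fell to 205.5 ± 26.7 normalized counts in VEGF-C hearts, against 301 ± 48.6 in PBS hearts (SD, n = 4 each). The libraries held 231, 169, 217 and 204 normalized counts in VEGF-C and 329, 240, 349 and 285 in PBS. No VEGF-C library reached the lowest PBS library, a pattern seen in 11.6% of all genes. The log2 difference was -0.54 ± 0.16, a fold of 0.690, with a limma adjusted p of 0.0449. When 1 library at a time was left out, the call held in 1 of 8 fits, that without PBS replicate 2 (limma adjusted p from 0.0321 to 0.112), and it was lost with limma-voom (adjusted p = 0.0513). Without both PBS replicate 1 and VEGF-C replicate 3 the log2 difference was -0.52 with an adjusted p of 0.127. The authors' deposited table gives Cd247 a log2 fold change of -0.55 with an adjusted p of 0.0130.

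Part of Cd247 is shared with another gene. In the GENCODE M21 annotation, which is of the earlier build GRCm38, 3007 exon bases of Cd247, or 56.4% of its exon length, also belong to exons of Pou2f1 on the opposite strand. Pou2f1 encodes the widely expressed transcription factor OCT-1. It had 453, 438, 457 and 516 normalized counts in VEGF-C replicates 1 to 4, against 764, 662, 679.6 and 652 in PBS replicates 1 to 4. The groups did not overlap, and Pou2f1 fell by 0.56 ± 0.10 on the log2 scale (SE; limma adjusted p = 0.00567). Within a library, Cd247 minus Pou2f1 averaged -1.172 ± 0.194 in VEGF-C and -1.198 ± 0.203 in PBS (log2 difference between the 2 genes, SD, n = 4 each), and the groups overlapped. The library kit keeps the strand, but the sources used here do not give the strand setting of the counting, and if strand was not used reads of the shared bases cannot be assigned to either gene. The part of Pou2f1 in the Cd247 value was not tested. Cd3e overlaps 2 predicted genes, neither of which had values.

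**Figure D1:**
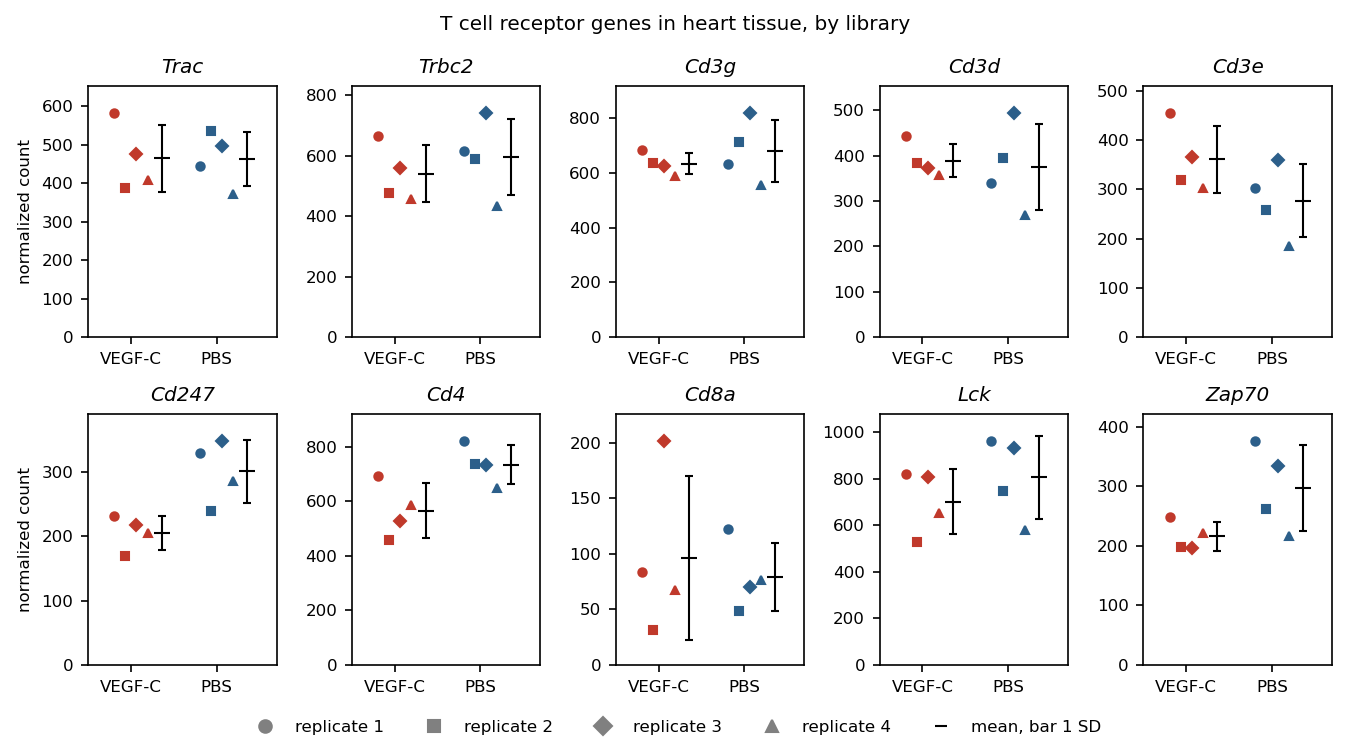
Normalized counts (linear axis from 0) of the 10 receptor genes in each VEGF-C library (red, left) and PBS library (blue, right), with marker shapes for replicates 1 to 4 and the mean with 1 SD in black. Only in Cd247 do the groups part, at 169 to 231 in VEGF-C and 240 to 349 in PBS, while the single high Cd8a value of 202 is VEGF-C replicate 3.

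The coreceptors differed in their spread. Cd4, the coreceptor of helper and regulatory T cells, had 694.5, 457, 528 and 588 normalized counts in VEGF-C replicates 1 to 4, against 823, 737, 734 and 649 in PBS replicates 1 to 4. VEGF-C replicates 2, 3 and 4 lay below the PBS range and replicate 1 lay inside it. The log2 difference was -0.39 ± 0.13 with a limma adjusted p of 0.0783, above the threshold. Leaving out 1 library moved the difference between -0.49 and -0.29. Only the fit without VEGF-C replicate 1 passed (limma adjusted p = 0.0417), and the other fits had adjusted p up to 0.169. Without both PBS replicate 1 and VEGF-C replicate 3 the difference was -0.30 (limma adjusted p = 0.258). Some dendritic cells of mice also carry CD4. The summed normalized counts of 5 dendritic cell markers ranged from 2282 to 3446 in VEGF-C and from 3208 to 5312 in PBS. Of these 5 markers 0 were called, against 15.7% of all genes. The part of dendritic cells in the Cd4 value was not tested.

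Cd8a, a chain of the coreceptor of cytotoxic T cells, had the fewest normalized counts and the widest log2 spread of the 10. It had 83.8, 31.2, 202 and 67.4 normalized counts in VEGF-C replicates 1 to 4, against 122, 48.9, 70.1 and 76.2 in PBS replicates 1 to 4. VEGF-C held both the highest and the lowest library. The log2 difference of 0.05 ± 0.47 had a 95% interval from -1.0 to 1.10, the widest of the 10, so a difference within it was not detectable given the spread between libraries. Without VEGF-C replicate 3 the difference was -0.39 (limma adjusted p = 0.543). The partner chain Cd8b1 had 95.4, 49.4, 119 and 59.7 normalized counts in VEGF-C, against 84.6, 82.2, 116 and 97.3 in PBS, so VEGF-C replicate 3 was close to PBS replicate 3 in Cd8b1 but not in Cd8a.

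Rag1 and Dntt, genes of immature thymocytes, were also high in VEGF-C replicate 3. The thymus, where T cells mature, lies next to the heart. Rag1, a recombinase that joins receptor gene segments, was at 133 normalized counts in that library, at 0 in the other 3 VEGF-C libraries, and at 0, 0, 12.3 and 4.86 in PBS replicates 1 to 4. Dntt, which adds bases at those joins, was at 58.3 in VEGF-C replicate 3, at 10.4 to 12.7 in the other VEGF-C libraries, and at 0 to 35.0 in PBS. Arpp21, the remaining marker with values, was not particular to that library. It was at 12.7, 49.4, 67.2 and 26.5 in VEGF-C replicates 1 to 4, and at 9.78 to 22.8 in PBS. The summed normalized counts of the 3 thymocyte markers with values were 25.4 to 259 in VEGF-C and 21.5 to 63.1 in PBS. Rag2 and Ptcra, the other 2 markers of the list, had no values. The highest values of Trac, Cd3e, Cd3d and Cd3g in VEGF-C were those of replicate 1, not replicate 3. Whether thymus RNA took part in the Cd8a value was not tested.

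**Figure D2:**
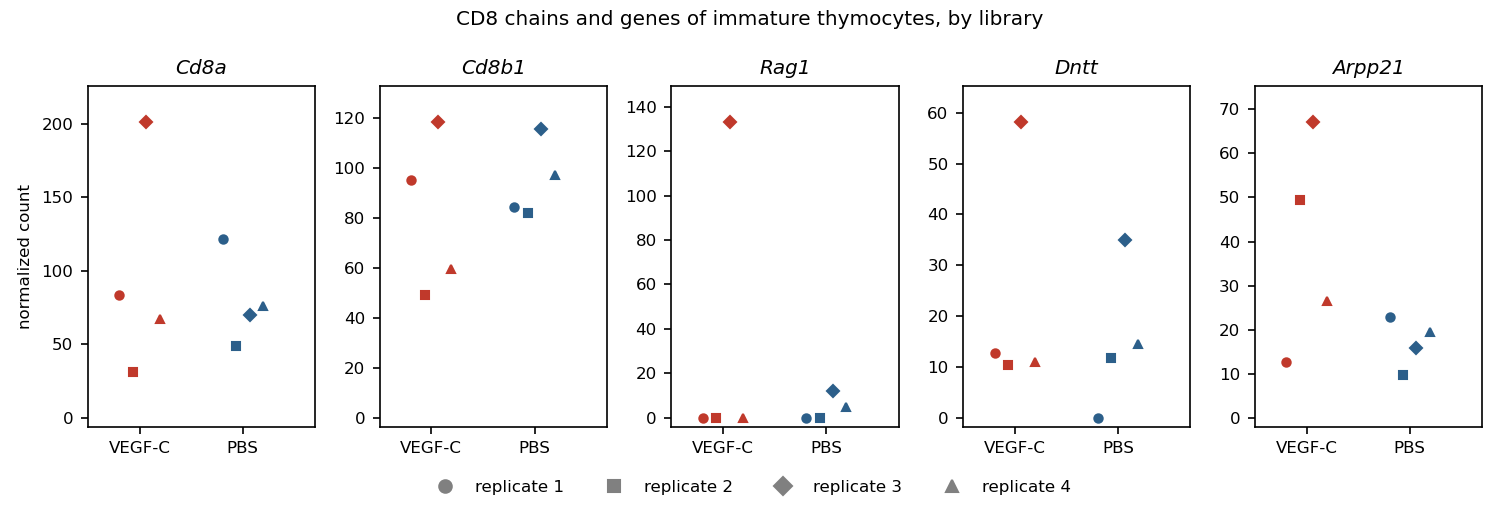
Normalized counts (linear axis) of both CD8 chains and of 3 immature thymocyte markers in each VEGF-C library (red, left) and PBS library (blue, right), with marker shapes for replicates 1 to 4. VEGF-C replicate 3 (diamond) is at 202 for Cd8a, 133 for Rag1, 58.3 for Dntt and 67.2 for Arpp21. In Arpp21, VEGF-C replicate 2 is at 49.4.

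The kinases of the complex had negative differences that did not pass. Lck, the kinase carried by the coreceptors, averaged 702 ± 138 normalized counts in VEGF-C and 805 ± 177 in PBS (SD, n = 4 each), a log2 difference of -0.19 ± 0.19 (limma adjusted p = 0.514). Leaving out 1 library moved it by over 1.5 times, to -0.06 without VEGF-C replicate 2, -0.10 without PBS replicate 1, -0.11 without PBS replicate 3 and -0.34 without PBS replicate 4. Zap70, the kinase that docks on the zeta and CD3 chains, had 248, 199, 196 and 222 normalized counts in VEGF-C, against 377, 261, 334 and 217 in PBS. Only PBS replicate 4 lay among the VEGF-C libraries. The log2 difference was -0.43 ± 0.18 with a limma adjusted p of 0.133, and it was -0.26 without both PBS replicate 1 and VEGF-C replicate 3 (adjusted p = 0.425). NK cells also carry the zeta chain, LCK and ZAP-70. The summed normalized counts of 5 NK cell markers were 405 to 658 in VEGF-C and 476 to 1097 in PBS. Of these 5 markers 1 was called, as lower, where 8.61% of all genes were lower. The part of NK cells in the Cd247, Lck and Zap70 values was not tested.

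Per kilobase of annotated exon, the constant regions were read most. Over all 8 libraries Trbc2 averaged 821 and Trac 495 normalized counts per kilobase, with ranges of 629 to 1072 and 399 to 623 that did not overlap, though reads shared with Trbc1 make the level of Trbc2 uncertain. Lck (257), Cd3d (210) and Cd3g (201) followed with overlapping ranges, and Cd4 (162) overlapped all 3 of them. Zap70 (85.8) and Cd3e (78.1) came next by mean, and their ranges of 65.5 to 126 and 45.3 to 111 overlapped. The range of Cd4, 113 to 204, overlapped that of Zap70. Cd247 (47.5) and Cd8a (24.1) had the lowest mean levels per kilobase, and their ranges of 31.7 to 65.4 and 8.57 to 55.4 overlapped as well. Each of these ranges also reached into that of Cd3e. Exon bases shared with Pou2f1 may make the level of Cd247 uncertain. Exon lengths are those of all annotated exons merged, so a gene with long unused exons is read as too low.

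Within each library, the values of Cd3e and Cd247 were set against each other. Cd3e minus Cd247, in log2 units, was 0.96, 0.90, 0.74 and 0.55 in VEGF-C replicates 1 to 4, against -0.12, 0.11, 0.05 and -0.62 in PBS replicates 1 to 4. All 4 VEGF-C libraries were above all 4 PBS libraries, by 0.94 in the mean. This pair was picked after its values were seen, as the most positive and the most negative of the 10, so it is given with no test. How often other gene pairs part the groups was not counted. Exon bases shared with Pou2f1 may make the Cd247 side uncertain. Cd3e minus Cd3g also parted the groups, by 0.49 in the mean, and Cd3e minus Cd3d, with a mean difference of 0.32, did not. Both pairs hold Cd3e, the most positive of the 10, and are likewise given with no test. Set against Ptprc, which encodes CD45 of all nucleated blood cells, Cd3e was at -2.68, -2.81, -2.89 and -3.29 in VEGF-C and at -4.27, -3.65, -3.59 and -4.41 in PBS (log2 difference of the 2 genes). The groups did not overlap and differed by 1.06 (exact two-sided permutation test, p = 0.0286, the smallest that 70 assignments can give). Cd3e was set against Ptprc with earlier results of both genes known, and non-overlap alone fixes this p, so it is not independent support. The same non-overlap against Ptprc was seen in 46.7% of all genes, and Ptprc itself fell. Among the 10 genes, Cd3e alone was free of overlap in this comparison, and the mean differences against Ptprc ran from 0.13 in Cd247 to 1.06 in Cd3e with a median of 0.55. Without both PBS replicate 1 and VEGF-C replicate 3, Cd3e against Ptprc differed by 0.96 (exact permutation p = 0.1, the smallest that 3 against 3 allows).

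**Figure D3:**
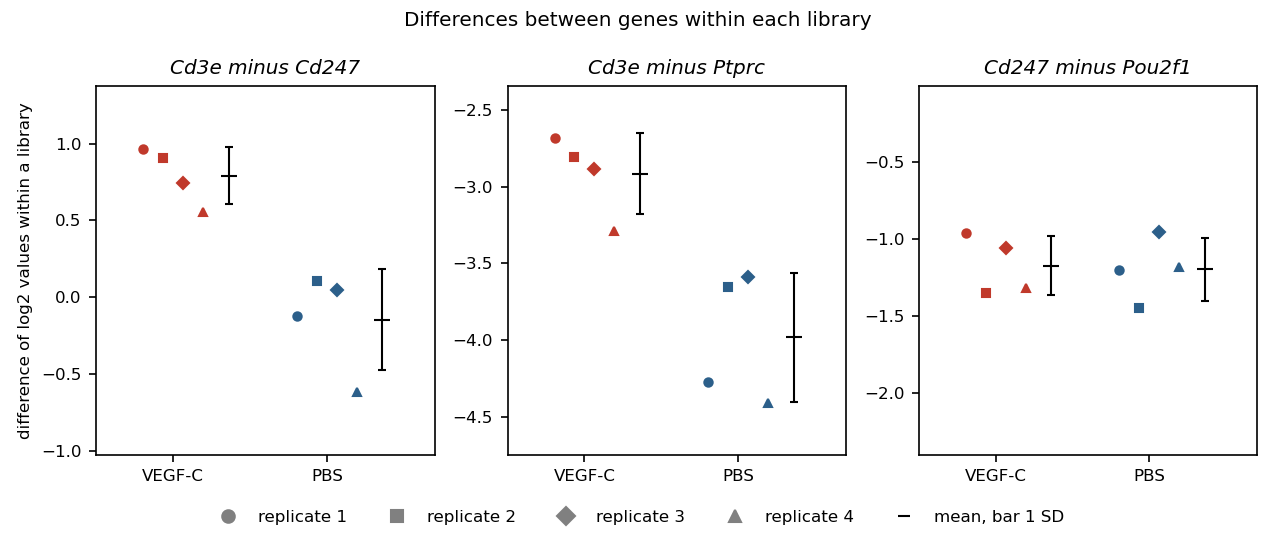
Difference of log2 values between 2 genes within each VEGF-C library (red, left) and PBS library (blue, right), with the mean and 1 SD in black and the same axis span in each panel. Cd3e minus Cd247 and Cd3e minus Ptprc part the groups, while Cd247 minus Pou2f1 averages -1.172 in VEGF-C and -1.198 in PBS. Cd3e and Cd247 were paired after their values were seen, and 46.7% of all genes part the groups against Ptprc as Cd3e does.

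Beyond the complex itself, 74 further genes of T cell receptor signalling were read in 6 lists, of which 71 had values. Of these 71, 14 passed (19.7%, against 15.7% of all genes), 3 as higher and 11 as lower, and their median log2 difference was -0.23. Without both PBS replicate 1 and VEGF-C replicate 3, 7 passed, all as lower. In that setting 1589 of all 18835 genes passed, and more of them as lower (1079) than as higher (510). Ptprc, the phosphatase that keeps LCK active and is counted here with the brakes on the receptor, fell to 2732 ± 333 normalized counts in VEGF-C, against 4400 ± 1112 in PBS (SD, n = 4 each; log2 difference -0.66 ± 0.16, limma adjusted p = 0.0229). Its call was lost without VEGF-C replicate 2, VEGF-C replicate 3 or PBS replicate 3 (adjusted p up to 0.0575).

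Of 18 genes listed as brakes on receptor signalling, Ptprc included, 6 were lower and 0 higher, with a median of -0.32. Over all genes 8.61% were lower, and whether the brakes differed from the other lists was not tested. Lax1, a membrane adaptor that dampens lymphocyte receptor signals, had 170, 204, 161 and 128 normalized counts in VEGF-C, against 381, 473, 449 and 421 in PBS. No VEGF-C library reached the lowest PBS library, and the log2 difference was -1.37 ± 0.15 (SE; limma adjusted p = 0.000668). Dok2, an adaptor that recruits a Ras inhibitor, fell by 0.66 ± 0.09, and the diacylglycerol kinases Dgka and Dgkz, which remove the lipid messenger made after receptor triggering, fell by 0.44 ± 0.08 and 0.47 ± 0.07 (limma adjusted p = 0.0018 for Dok2, 0.00633 for Dgka and 0.00198 for Dgkz). These 4 calls held without any 1 library. Ptpn6, the phosphatase SHP-1, fell by 0.44 ± 0.12, and its call was lost without PBS replicate 3 or any 1 VEGF-C library (limma adjusted p up to 0.0855). Ptprc, Ptpn6, Dok2 and Lax1 are also expressed by B cells or myeloid cells, and Dgkz by heart muscle. Of 5 B cell markers 3 passed as lower, and summed normalized counts of the 5 were 451 to 1609 in VEGF-C and 2158 to 3865 in PBS. The 5 macrophage and monocyte markers summed to 19245 to 21897 in VEGF-C and 21339 to 24713 in PBS, with 1 of 5 called, as lower. The part of B cells and myeloid cells in these decreases was not tested.

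Of 13 measured adaptors and kinases next to the receptor, 1 was higher and 1 lower, with a median of -0.26. The share called was 15.4%, near the 15.7% of all genes. Vav1, an exchange factor for small GTPases in blood cells, fell by 0.41 ± 0.11 (SE; limma adjusted p = 0.0293), a call lost without VEGF-C replicate 1, 2 or 3 or PBS replicate 3. Fyn, a Src family kinase also found outside the immune system, rose to 4589 ± 319 normalized counts in VEGF-C, against 3523 ± 293 in PBS (SD, n = 4 each; limma adjusted p = 0.0131). With library totals as the scaling, Fyn did not pass (adjusted p = 0.131). Adaptors close to the receptor, Lat and Lcp2, had log2 differences of -0.37 and -0.26 that did not pass (limma adjusted p = 0.197 and 0.185).

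Downstream of the receptor, 2 of 12 genes were higher and 1 lower (25%, against 15.7% of all genes), with a median of 0.10. Nfatc1, a calcium-dependent transcription factor, rose by 0.37 ± 0.07, and Ppp3ca, a catalytic subunit of calcineurin, rose by 0.25 ± 0.07. Heart muscle and blood vessels express Ppp3ca and Nfatc1 too. Summed normalized counts of 5 cardiomyocyte markers were 2928480 to 3176540 in VEGF-C and 2136050 to 2918120 in PBS. With limma 0 of 5 were called, while the authors' deposited table calls 2 of these markers, as higher, and 21.6% of all genes. The part of heart muscle and blood vessels in these increases was not tested. Neither increase passed with library totals (adjusted p = 0.119 and 0.607), and that of Ppp3ca held in only 1 of 8 fits that left out a library.

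Among 14 genes of T cell identity and costimulation, 1 was lower and 0 higher (7.14%, against 15.7% of all genes), with a median of -0.18. Ccr7, the receptor that guides T cells and dendritic cells to lymph nodes, had a log2 difference of -0.84 ± 0.30 that did not pass (limma adjusted p = 0.0842). Of 9 measured genes that receptor signals induce, 2 were lower and 0 higher (22.2%, against 15.7% of all genes). Egr2 and Egr3, transcription factors switched on by receptor signals in T cells and by growth signals in many other cells, had log2 differences of -1.32 ± 0.28 and -1.78 ± 0.35 (limma adjusted p = 0.0141 and 0.00935). In Egr3 the VEGF-C libraries lay close together, at 128 to 168 normalized counts, against a wide spread of 271 to 1015 in PBS. Ifng and Cd40lg, made by activated T cells, had differences of -0.30 and -0.27 that did not pass (adjusted p = 0.694 and 0.686), at low counts in both groups. Of 5 further receptor chains with values, Trbc1, Trdc, Trgc1, Trgc2 and Cd8b1, 0 passed; Trgc2, a constant region of the gamma chain, had a log2 difference of -0.40 ± 0.32.

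**Figure D4:**
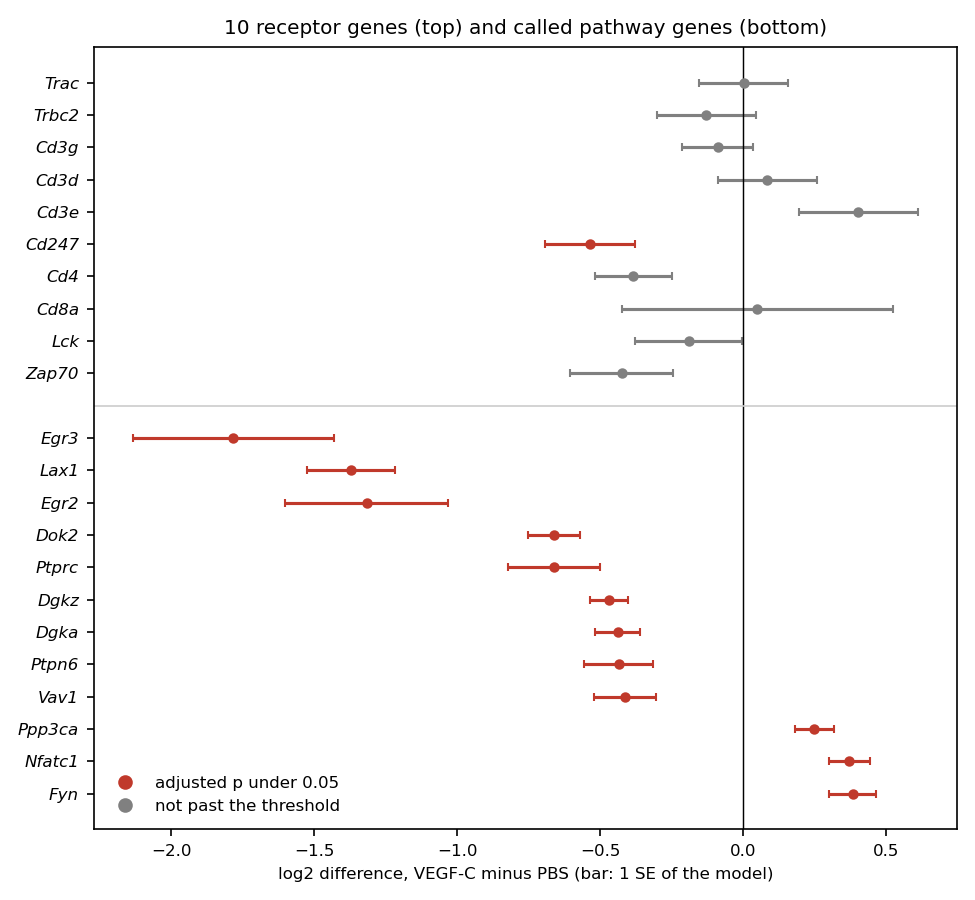
Log2 difference, VEGF-C minus PBS, with 1 SE of the model, for the 10 receptor genes (top) and 12 of the 14 called genes of the further pathway lists (bottom), with red for an adjusted p under 0.05 and grey for the rest. The receptor genes lie between -0.54 and 0.40, and Egr3 and Lax1 have the most negative values at -1.78 and -1.37.

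Outside the 10 receptor genes, which were left out of the ranking, the annotated genes with a mean of at least 50 normalized counts whose profile over the 8 libraries was most like the mean of the 4 CD3 and zeta genes were H2-K1, Ddit3, P2ry6, Ftl1, Ctsz and Rpl10. Likeness was the root-mean-square difference of log2 values after each gene was centred on its own mean, and it was 0.0522 to 0.0879 log2 units for these 6. The 10 receptor genes ranged from 0.0872 in Trbc2, closer than Rpl10, to 0.708 in Cd8a on the same measure. The CD3 and zeta genes are part of the mean profile themselves, and the 8 libraries share their scaling.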

How the data were processed

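RNA of mouse heart tissue was sequenced in 4 VEGF-C and 4 PBS libraries with a stranded mRNA kit, per the labels' protocols. The submitters' processing notes name the build GRCm39 with STAR 2.7.10a, Trim Galore 0.6.10, DESeq2 1.38.3 and featureCounts with Subread 2.0.1. Annotation, strand setting and gene filter are not given in the sources used. Of 56941 genes, 18835 carry log2 values in the authors' deposited table. Read back, each is log2(x + 4) of a whole number of reads divided by 1 factor per library (100% of values within 0.01 reads). It also gives the authors' adjusted p-value and log2 fold change per gene. Depth is the sum of recovered reads over these genes, which limits the precision of low genes.

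The 10 genes and all lists were chosen with earlier results of these data known. limma 3.58.1 (R 4.3.3), with a variance trend and 6 residual degrees of freedom, was fitted to all genes, two-sided with Benjamini-Hochberg adjustment, and tested on simulated data. Values are mean ± SD of 4 libraries or difference ± SE. The labels give each sample its own number but do not say what is independent between them. The p-values thus set the difference between groups against the spread between these samples. Named were the 10 genes, each called gene of the lists, or else the 2 with the smallest p, Ptprc and the 6 most alike genes. Lat, Lcp2, Ccr7, Ifng, Cd40lg, Cd8b1, Pou2f1, Rag1, Dntt and Arpp21 were added after their values were seen. Some genes counted in the lists are not reported here by name. Alternatives were other scalings, offsets of 1 and 16, a mean of at least 10 normalized counts, limma-voom, robust variances and leaving out libraries. Exon lengths came from GENCODE M21 and start windows from RefSeq.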

Additional observations from a re-analysis of the deposited data

Results flagged for a closer look

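A library was marked where its log2 value lay apart from the other 3 of its group, by a gap that, as a share of the group's range, exceeded Dixon's 95% critical value for 4 samples. Of 234 groups checked (117 genes, 2 groups each), 12 were marked, and chance marks about 1 in 20. None of the 10 receptor genes was among them.

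In VEGF-C replicate 3, Rag1 was at 7.10 against 2.0 in each of the other VEGF-C libraries, the value of a gene with no reads. Dntt was at 5.96 in that library against 3.85 to 4.06, and Egr3 at 7.43 against 7.05 to 7.08. In VEGF-C replicate 2, Fyb was low at 9.69 (others 10.18 to 10.25), Il7r at 8.31 (8.48 to 8.51) and Cd68 at 11.24 (11.75 to 11.82). In VEGF-C replicate 1, Trbc1 was high at 8.71 (8.09 to 8.12) and Ctsz at 13.63 (13.25 to 13.31). In PBS replicate 3, Dok1 at 10.41 (10.01 to 10.07) and Sit1 at 7.04 (5.83 to 5.92) were high and Pax5 at 7.50 (8.29 to 8.38) was low. In PBS replicate 4, Orai1 was low at 10.45 (10.66 to 10.67).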

How the results depend on the processing

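The count of receptor genes past the threshold was 1 with the deposited scaling, 3 with library totals (Cd247, Cd4 and Zap70, all lower), 0 with limma-voom and 0 without both PBS replicate 1 and VEGF-C replicate 3, a setting chosen after seeing the data. Without 1 library it was 0 to 1, and the gene called was Cd247 without PBS replicate 2 and Cd4 without VEGF-C replicate 1. With library totals the log2 median over all genes shifted by -0.19. Over all genes 2949 passed, 1589 without both libraries and 1684 to 2906 without 1 library, with the low end without VEGF-C replicate 3 and 1956 without VEGF-C replicate 1. Higher and lower calls were 1328 and 1621 as deposited, 243 and 3572 with library totals, 769 and 1937 with upper-quartile factors, 591 and 1093 without VEGF-C replicate 3 and 510 and 1079 without both libraries. Of the 71 further genes 14 passed, 22 with library totals (0 higher), 7 without both libraries and 10 to 14 without 1 library.

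Signs of values near 0 changed. With library totals Cd3d was -0.11, Cd8a -0.13 and Trac -0.19; with upper-quartile factors Cd8a was -0.0062 and Trac -0.0575; with trimmed-mean factors Trac was -0.0032. Without both libraries Cd8a was -0.17 and Trac -0.03. Without 1 library Cd3d ran from -0.0613 to 0.23, Cd3g from -0.18 to 0.0047, Cd8a from -0.39 to 0.46 and Trac from -0.11 to 0.0789. Cd3e against Ptprc differed by 0.92 to 1.19 without 1 library, and by 0.96 without both (exact permutation p = 0.1, the smallest possible). The causes were not tested. Depth bears most on genes with few reads, such as Ifng with 5 to 39 per library. No paired analysis was possible because the labels give the groups no shared animal numbers.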
